A study of Mus musculus with 2 samples.

Results

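The genes described here encode the cytosolic ribosomal proteins of the mouse, measured in sorted cells that the labels call tumor cells. They were chosen by name alone. A gene was included when its symbol was Rpl or Rps followed by digits, or was Rpsa, Rplp0, Rplp1 or Rplp2, and Rps6k kinases and symbols ending in -ps were left out. The rule gave 86 of the 22886 genes in the files. Of these, 77 encode proteins of the ribosome itself, 46 in the large and 31 in the small subunit, and 8 are paralogs, that is, related copies of such a gene. The remaining gene, Rps19bp1, encodes a protein that binds RPS19 and is not a ribosomal protein, but its name met the rule.

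The series held 2 RNA sequencing libraries from wild type C57BL/6 mice carrying subcutaneous LLC tumors (Lewis lung carcinoma, a mouse lung tumor). Both were made from polyA RNA of FACS-sorted cells that the labels call aerobic tumor cells, 1 from mice with vehicle injection and 1 from mice with clodronate injection. Clodronate is commonly given in liposomes to remove macrophages. The labels give no age, dose, time or number of mice, so it is unknown whether animals were pooled. A growth protocol in the same labels names EML cells, a blood progenitor line, which conflicts with the tumor labels. With 1 library per condition there are no replicates, so no value below has a replicate error or a test. Clodronate and whatever else set the 2 preparations apart (the animal, the sort, the library) cannot be told apart.

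Each ribosome carries 1 copy of nearly every ribosomal protein on a scaffold of ribosomal RNA. The large subunit joins amino acids and holds the tunnel through which the new chain leaves, and the small subunit reads the mRNA. Ribosomal protein mRNAs are short and abundant in nearly all cells, and most begin with a run of pyrimidines, the 5′ terminal oligopyrimidine tract. Through this tract their translation follows nutrient and growth signals that act through mTORC1.

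Values were RPKM, reads scaled to transcript length and library size. They summed to 601579 in the vehicle library and 596143 in the clodronate library over 23170 loci, of which 8649 were listed at 0 in both. The files held no read totals. They were estimated from values under 0.3 RPKM and annotated transcript lengths, which may differ from the lengths behind the deposited values. If the most frequent such value, scaled by length, is 1 read, the vehicle library had about 12800000 and the clodronate library about 10400000 reads. The 76 ribosomal proteins proper with a matched transcript length, Rps20 being without, then each rested on at least 1074 reads, and the largest counting error of a log2 ratio was 0.055, which covers counting error only. All 11 macrophage markers were kept, with Lyz2 at 10534 RPKM in vehicle and 11189 RPKM in clodronate, whereas 5 of 8 epithelial markers were listed at 0 in both and the highest epithelial value was 6.44 RPKM. The other 3 epithelial markers were kept. The epithelial markers of a carcinoma were thus at 0 or low in cells labelled as tumor cells, and the identity of the cells was not tested.

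The sequence at the start of a ribosomal protein gene can be searched for such a run. RefSeq (GRCm38.p6) gave windows from 250 bases before to 50 bases after the annotated start for 65 of the 86 genes, 77 windows in all. A run of at least 8 pyrimidines lay within 25 bases of the start in 44.2% of these windows and in 19.7% of all 32851 windows of the genome. The median longest run was 7 nt against 5 nt. Runs on either side of the start were counted, so a run need not lie at the 5′ end of the mRNA. The following are the windows with the longest runs, 5′ to 3′ on the gene strand, shown to make the runs visible. Each gives 15 bases before the start followed by 15 bases from the start. Capitals mark the part of the longest pyrimidine run that lies inside the printed window.
Rpl7a, chr2:26910792-26910821, plus strand: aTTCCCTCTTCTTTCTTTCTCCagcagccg
Rpl27a, chr7:109519180-109519209, plus strand: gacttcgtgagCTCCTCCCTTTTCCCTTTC
Rpl34, chr3:130730323-130730352, minus strand: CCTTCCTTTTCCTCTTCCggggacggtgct

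The run was 21 nt long in Rpl7a and 20 nt long in Rpl27a and Rpl34. The word CTTTCC on the gene strand was found in 37.7% of the ribosomal protein windows and 14.1% of all windows, and it can lie inside a pyrimidine run. The word CCGGAAG, which ETS factors bind, was found on either strand in 35.1% against 8.86%. The word AAGATGG, the core of YY1 sites, was found on either strand in 15.6% against 6.34%. By contrast, TATAAA on the gene strand was found in 7.79% against 8.32% and the GC box GGGGCGG on either strand in 23.4% against 23.2%. The ribosomal protein windows thus held pyrimidine, ETS and YY1 words more often than all windows, and the TATA and GC box words about as often. A match is a string of letters and not evidence of binding, and genes with several annotated starts were counted once for each start.

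**Figure D1:**
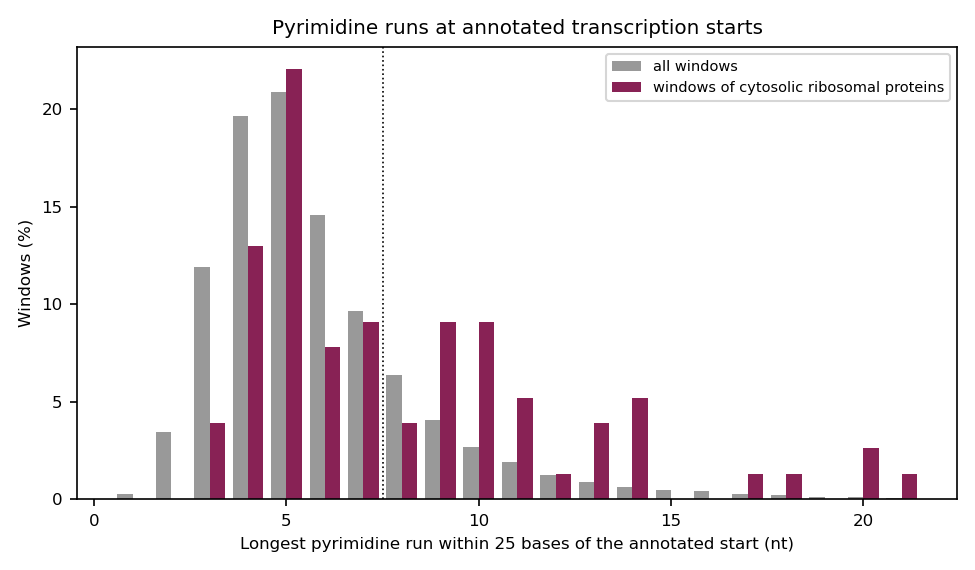
Share of promoter windows (vertical axis, %) by the longest pyrimidine run within 25 bases of the annotated start (horizontal axis, nt), for the 77 windows of cytosolic ribosomal protein genes and for all 32851 windows, with runs longer than 21 nt not drawn. Bars to the right of the dotted line are runs of at least 8 nt, which made up 44.2% of the ribosomal protein windows and 19.7% of all windows.

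Ribosomal protein mRNAs were among the most abundant in both libraries. Their RPKM summed to 87183 in the vehicle library and 64989.9 in the clodronate library, which was 14.5% and 10.9% of all RPKM. RPKM is per length, so this is a share of length-scaled signal and not of reads. Among the 100 genes with the highest RPKM, 27 were ribosomal protein genes in vehicle and 20 in clodronate. In bulk RNA of this kind, fewer cells of a type and less of this RNA per cell cannot be told apart.

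The 77 ribosomal proteins proper spanned a wide range although their products are needed in nearly equal number. Their median was 851 RPKM in vehicle, with the central 50% of genes between 494 and 1213 RPKM, and 654 RPKM in clodronate, between 455 and 972 RPKM. The median of all 10982 genes kept, whose mean reached 1 RPKM, was 11.1 and 11.3 RPKM. In vehicle 27 of the 77 had at least 1000 RPKM, and in clodronate 19. Only Rpl22 and Rps15a lay below 100 RPKM in both libraries. The order of the genes was alike in both, with a Pearson correlation of 0.97 on the log2 scale and a Spearman correlation of 0.96 over 83 genes, which share their lengths and their sequence between libraries.

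Rps27, a zinc-binding protein of the small subunit, had the highest level, with 6636 RPKM in vehicle and 3378 RPKM in clodronate, and held rank 4 and rank 14 among all genes. Rpl39, a very small protein in the wall of the exit tunnel, followed with 5057 and 2249 RPKM. Rpl41, the smallest ribosomal protein, had 3289 and 3249 RPKM, so that it had the highest level in the large subunit in clodronate but not in vehicle. Rps28, at the path by which mRNA leaves the small subunit, had 4149 and 2163 RPKM. Further abundant genes were Rplp1 of the acidic stalk with 2759 and 2905 RPKM and Rpl38 with 3104 and 1887 RPKM. Rpl35 had 2040.2 and 1736 RPKM, Rpl10 had 2249 and 1511 RPKM, and Rpl23a had 1727 and 1505 RPKM. Of these 9 genes, Rplp1 was the only gene with a higher value in clodronate.

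At the low end, Rps15a had 27.7 and 20.2 RPKM and Rpl22 had 96.0 and 50.4 RPKM. The annotated transcript matched to Rps15a was 5179 nt long and that of Rpl22 2051 nt, against a median of 814.5 nt over the ribosomal protein genes. Across 82 genes, the log2 mean level was lower for longer transcripts, with a Pearson correlation of -0.53 and a Spearman correlation of -0.51. RPKM divides by length, and the lengths used in the deposited values are not given in the sources used here. An error in an assumed length would shift a level. The ratio between libraries would be unchanged only if the same length was used for both, which was not tested.

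**Figure D2:**
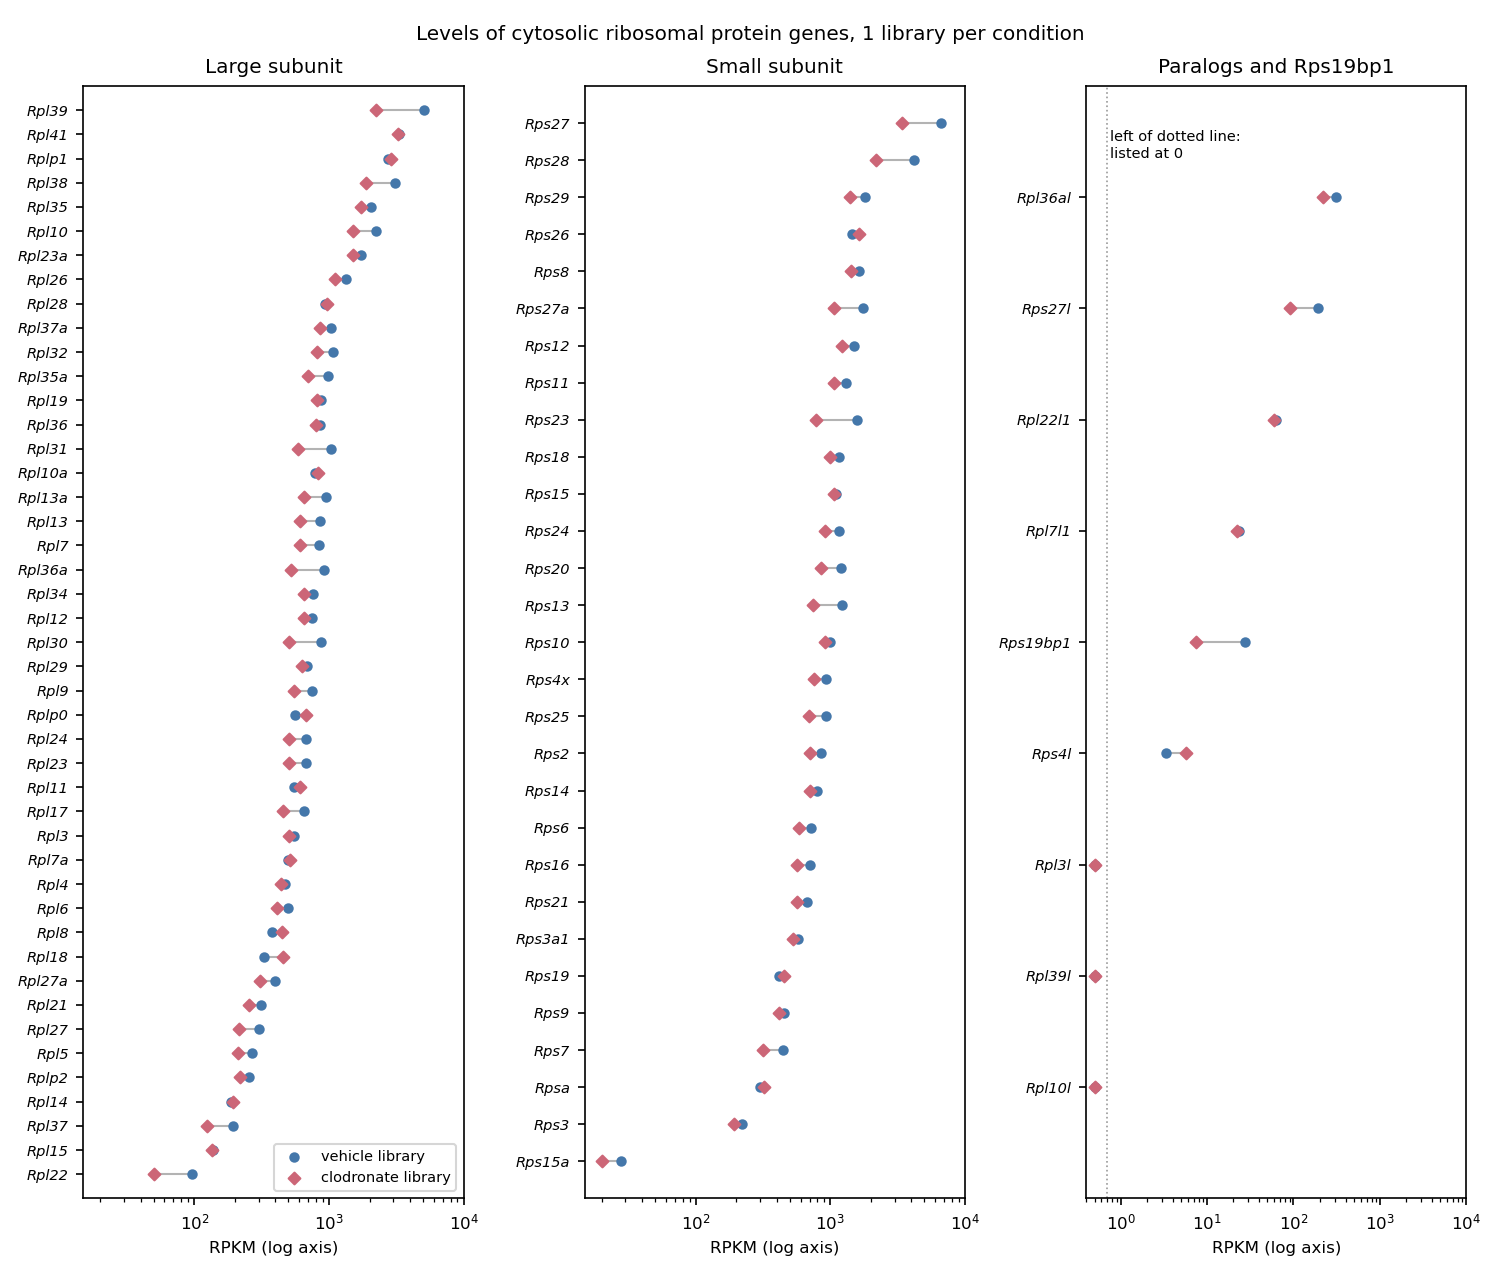
RPKM (horizontal axis, logarithmic) of ribosomal protein genes in the vehicle library (circles) and the clodronate library (diamonds), joined by a line, for the large subunit, the small subunit, and the paralogs with Rps19bp1. Most diamonds lie to the left of their circles, as for Rpl39 with 5057 and 2249 RPKM, and 3 paralogs are listed at 0 in both libraries.

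Most ribosomal protein mRNAs were lower in the clodronate than in the vehicle library, mostly by a small margin. Of the 83 genes kept, 69 were lower and 14 were higher by any amount, so 83.1% were lower, whereas 48.4% of all genes kept were lower. The median log2 ratio of clodronate over vehicle, computed on RPKM + 1, was -0.29, with the central 50% from -0.51 to -0.11, against 0.019 for all genes kept. At least 1.5-fold lower were 16 genes, or 19.3% of the 83, which is near the 16.3% of all genes kept that passed this fold. At least 1.5-fold higher was 1 gene, the low-level paralog Rps4l, against 16.6% of all genes kept. These shares are the background for every later count past 1.5-fold among genes kept. Ratios of low genes scatter more widely, so genes of like level are a closer background. Of all genes whose mean reached 100 RPKM, 53.8% were lower by any amount, 12.9% were at least 1.5-fold lower and 8.26% at least 1.5-fold higher. Among the 77 ribosomal protein genes in that set, 83.1% were lower, 18.2% at least 1.5-fold lower and 0 at least 1.5-fold higher. The ribosomal protein genes thus differed from all genes in how many lay on the lower side and in how few lay far on the higher side, and less in how many lay far below.

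Of the 83 genes, 35 stayed within 1.2-fold in either direction. The threshold of 1.5-fold fell between Rpl37, with a log2 ratio of -0.64, and Rpl10, with -0.57. Both subunits had nearly the same median, -0.28 in the large subunit, where 36 of 46 genes were lower and 7 passed 1.5-fold, and -0.29 in the small subunit, where 28 of 31 were lower and 7 passed 1.5-fold. The lower sum in clodronate rested to a large part on a few abundant genes. The difference of 22192.8 RPKM held 3258 RPKM of Rps27, 2808 RPKM of Rpl39 and 1985 RPKM of Rps28, which together made up 36.3% of the net difference. Without these 3 genes, chosen after their values were seen, the remaining genes held 11.9% of all RPKM in vehicle and 9.59% in clodronate.

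**Figure D3:**
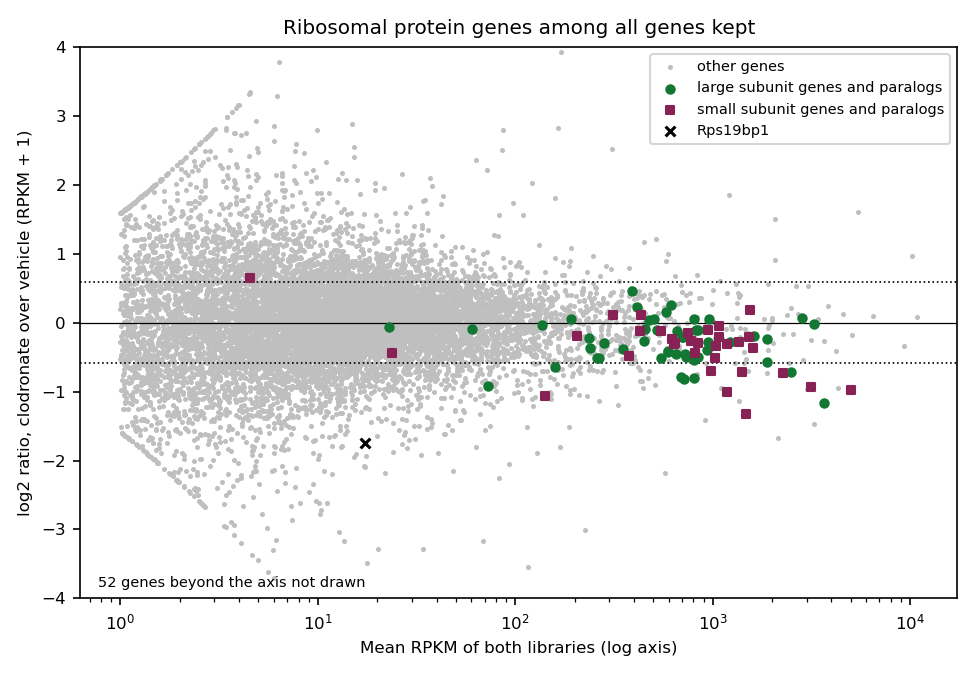
The log2 ratio of clodronate over vehicle on RPKM + 1 (vertical axis) against the mean RPKM of both libraries (horizontal axis, logarithmic) for the 10982 genes kept, with the ribosomal protein genes of each subunit and Rps19bp1 marked and 1.5-fold shown by dotted lines. The ribosomal protein genes lie at the right among the most abundant genes, with 69 of 83 below 0 and 16 below the lower dotted line, and 52 genes beyond a log2 ratio of 4 in either direction are not drawn.

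Several ribosomal protein genes were lower by a wide margin. Rpl39, at chrX:34622514-34625179 of mm9, the build named in the submitters' processing notes, had 5057 and 2249 RPKM, a log2 ratio of -1.17, and held rank 9 in vehicle and rank 30 in clodronate. Rps27l had 191 and 91.4 RPKM, a log2 ratio of -1.06, and Rps23, a protein at the decoding centre, had 1576 and 785.7 RPKM, a 2.01-fold lower level. In all, 5 of 83 genes were at least 2-fold lower in clodronate, as were 6.77% of all genes kept, and 0 were at least 2-fold higher, against 6.95% of all genes kept.

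The 5 highest ratios among genes whose mean reached 10 RPKM were small. Rpl18 had 330.5 RPKM in vehicle and 455 RPKM in clodronate, a log2 ratio of 0.46. Rplp0, the base of the acidic stalk, had 561 and 669.9 RPKM (0.25), and Rpl8, a protein close to the site of peptide bond formation, had 380.1 and 447 RPKM (0.23). Rps26 had 1443 and 1635 RPKM (0.18) and Rpl11 had 546 and 609 RPKM (0.16). None of these 5 genes reached 1.5-fold.

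The starts of these genes are shown in the same way (RefSeq, GRCm38.p6), in order of their log2 ratio from the lowest to the highest. Pyrimidine runs can thus be compared between the lower and the higher genes. Rps19bp1 is described with the paralogs, and a window for Rpl8 was not used here.
Rps19bp1, chr15:80264292-80264321, minus strand: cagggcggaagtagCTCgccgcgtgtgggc
Rpl39, chrX:37085208-37085237, minus strand: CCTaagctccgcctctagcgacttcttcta
Rps27l, chr9:66946071-66946100, plus strand: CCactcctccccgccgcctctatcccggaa
Rps23, chr13:90923107-90923136, plus strand: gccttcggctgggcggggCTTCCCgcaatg
Rpl11, chr4:136053379-136053408, minus strand: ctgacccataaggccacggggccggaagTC
Rps26, chr10:128626492-128626521, minus strand: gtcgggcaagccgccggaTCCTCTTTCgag
Rplp0, chr5:115559452-115559481, plus strand: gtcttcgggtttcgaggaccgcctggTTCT
Rpl18, chr7:45718056-45718085, plus strand: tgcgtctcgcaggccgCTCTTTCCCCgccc

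Among the higher genes, the longest run within 25 bases of the start was 10 nt in Rpl18, 9 nt in Rps26, 7 nt in Rplp0 and 12 nt in Rpl11. In Rpl18 and Rps26 it lay just after the start, and in Rplp0 and Rpl11 farther downstream. Among the lower genes, it was 6 nt just after the start in Rps23, 9 nt before the start in Rpl39 and Rps27l, and 3 nt in Rps19bp1. Where runs tied in length, only the first is in capitals. The Rps27l window holds another run of 9 nt before the start, in small letters. The Rpl39 window also holds a run of 8 nt after the start, in small letters. Over all genes with a window, the presence of a run made little difference. The 32 genes kept that had a run of at least 8 nt had a median log2 ratio of -0.23, with 25 lower in clodronate, and the 30 without had a median of -0.30, with 27 lower. Annotated starts can differ from the starts used in these cells, which RPKM values do not show.

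Proteins of the large subunit are described next by their place in the ribosome, in groups set after their values were seen. The stalk, which recruits elongation factors, is made of Rplp0, Rplp1 and Rplp2 and is bound to the ribosome beside Rpl12. Rplp1 had 2759 and 2905 RPKM, a log2 ratio of 0.074, and Rplp2, its partner in the dimers of the stalk, had 255 and 219 RPKM, a log2 ratio of -0.22. Rpl12 had 749 and 650.0 RPKM (-0.20). The stalk genes therefore lay on both sides of 0, with 2 lower and 2 higher. Rpl5 and Rpl11, which carry 5S ribosomal RNA into the ribosome and bind MDM2 when free, also lay on both sides, with Rpl5 at 270.3 and 209.6 RPKM (-0.37) and Rpl11 higher as given above.

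The 9 genes of the peptide exit tunnel were lower in clodronate, as were 83.1% of all ribosomal protein genes kept. Of the 3 that line it, Rpl39 was at least 1.5-fold lower, while Rpl17 had 647 and 452 RPKM (-0.52) and Rpl4 had 470.1 and 442 RPKM (-0.090). Of the 6 at its rim, where factors for the new chain dock, Rpl22 had 96.0 and 50.4 RPKM (-0.92) and Rpl31 had 1030.2 and 588 RPKM (-0.81). The other 4, Rpl19, Rpl23a, Rpl26 and Rpl35, had log2 ratios from -0.28 to -0.11. The members of the rim were thus lower by unequal amounts.

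Further genes of the large subunit past 1.5-fold were Rpl36a with 915 and 521 RPKM (-0.81), Rpl30 with 874 and 506 RPKM (-0.79), Rpl38 with 3104 and 1887 RPKM (-0.72) and Rpl37 with 195 and 124 RPKM (-0.64). RPL38 is known for a role in the translation of Hox mRNAs. In contrast, Rpl41 (-0.018), Rpl15 with 138 and 135 RPKM (-0.029) and Rpl14 with 187 and 195 RPKM (0.057) had nearly the same level in both libraries. All 4 genes on chromosome X were lower, as were 83.1% of all ribosomal protein genes kept. These 4 were Rpl39, Rpl36a, Rpl10 (-0.57) and Rps4x with 925 and 756 RPKM (-0.29).

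In the small subunit, genes of the mRNA exit path differed widely among themselves. Rps28 had a log2 ratio of -0.94, Rps14 had 792 and 710.2 RPKM (-0.16), and Rps26 was higher (0.18). At the entry of mRNA, Rps2 had 851 and 706 RPKM (-0.27) and Rps3 had 220.3 and 192 RPKM (-0.20). At the decoding centre, Rps15 had 1094 and 1060.0 RPKM (-0.045), whereas Rps23 was 2.01-fold lower. Proteins that lie side by side in the ribosome thus did not share 1 ratio.

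Rps27 had a log2 ratio of -0.97, and Rps27a, which is made as a fusion with ubiquitin, had 1757 and 1071 RPKM (-0.71). Rps13 had 1213 and 743 RPKM (-0.71). On the other side, Rpsa, also known as a laminin receptor, had 299 and 324 RPKM (0.11) and Rps19, known for its mutations in Diamond-Blackfan anaemia, had 417 and 449.5 RPKM (0.11). Of the small subunit genes, Rps26, Rpsa and Rps19 were the 3 that were higher in clodronate.

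Paralogs of ribosomal proteins are often restricted to some tissues. Rpl3l, known from muscle, and Rpl10l and Rpl39l, known from testis, were listed at 0 in both libraries. The other 5 paralogs were kept. Rpl36al had 312 and 218 RPKM (-0.52), Rpl22l1 had 62.5 and 58.8 RPKM (-0.088), and Rpl7l1 had 23.3 and 22.3 RPKM (-0.059). The share that the paralog held in the sum with its partner differed most in percentage points for Rpl22l1, since Rpl22 was lower and Rpl22l1 nearly level. Rpl22l1 made up 39.4% of the pair in vehicle and 53.8% in clodronate. Rpl36al made up 25.4% and 29.5% of its pair with Rpl36a, and Rpl7l1 2.70% and 3.53% of its pair with Rpl7.

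Rps27l, a target of p53 in other systems, was lower together with Rps27, so its share of the pair was 2.80% in vehicle and 2.63% in clodronate. The coding sequences of the pair, 252 nt each, are shown to let the reader see how far reads from them can be told apart. They are spliced from chr9:66944624-66949522 for Rps27l and chr3:90212667-90213648 for Rps27 (GRCm38.p6), and capitals mark the 60 bases that differ.
Rps27l: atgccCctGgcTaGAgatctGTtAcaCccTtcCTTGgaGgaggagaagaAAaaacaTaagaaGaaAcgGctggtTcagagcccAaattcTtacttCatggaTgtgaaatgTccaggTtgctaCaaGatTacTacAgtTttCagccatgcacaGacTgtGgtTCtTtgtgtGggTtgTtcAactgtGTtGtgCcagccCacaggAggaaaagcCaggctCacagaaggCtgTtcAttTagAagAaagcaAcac
Rps27: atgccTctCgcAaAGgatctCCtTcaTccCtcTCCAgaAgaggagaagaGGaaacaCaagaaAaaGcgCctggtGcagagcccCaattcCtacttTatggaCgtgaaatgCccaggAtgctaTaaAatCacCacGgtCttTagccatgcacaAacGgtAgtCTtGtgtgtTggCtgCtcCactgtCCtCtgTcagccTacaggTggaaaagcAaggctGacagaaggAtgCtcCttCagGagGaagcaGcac

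The coding sequences were 76.2% identical and shared no run longer than 11 nt, so no read longer than 11 nt from either coding sequence matches the other exactly. The Rpl36al and Rpl36a pair was closer, with 87.7% identity and a longest shared run of 24 nt, and the Rpl22l1 and Rpl22 pair was 67.5% identical. Rps4l was listed at 3.34 RPKM in vehicle and 5.78 RPKM in clodronate (0.64). At the depth given above Rps4l rested on about 40 and 57 reads, with a counting error of 0.30 for its ratio. Its locus in the files spans 397 kb, at chr6:147995937-148392874 of mm9, and overlaps 4 other rows, so reads of other genes may count towards it. It made up 0.360% and 0.759% of its pair with Rps4x, the largest relative difference among the paralogs kept.

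Rps19bp1, which met the naming rule without being a ribosomal protein, had 27.2 RPKM in vehicle and 7.38 RPKM in clodronate, a log2 ratio of -1.75 and the lowest of the 83. At the depth given above its ratio has a counting error of 0.20. Without Rps19bp1 and the paralogs, 64 of the 77 ribosomal proteins proper were lower, 14 were at least 1.5-fold lower and 0 at least 1.5-fold higher.

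Ribosomal protein genes have many processed pseudogenes and related copies, so reads can match several places. Of the 50-base words in the annotated transcript of a ribosomal protein gene, a median of 49.3% also occurred in transcripts of other genes, over 85 genes. In 42 genes at least 50% of the words were shared, with 98.6% for Rps27, 93.3% for Rpl9 and 92.1% for Rpl10. Rps19bp1, Rpl3l and Rpl39l shared none. The levels of genes with many shared words are therefore uncertain, because the sources used here do not state how reads with several matches were counted. The log2 ratio was not related to this share, with a Spearman correlation of 0.010 over 82 genes that share both libraries. Among the 40 genes kept with under 50% shared words, 32 were lower and 9 were at least 1.5-fold lower.

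Ratios in these libraries moved with the length and GC content of the transcript across all genes, and ribosomal protein transcripts are short. In the shortest of 10 bins of length, which held 64 ribosomal protein genes, the median log2 ratio was -0.17 for the other genes and -0.29 for the ribosomal protein genes, and over the longest bin it was 0.072. With GC content, the median of the other genes went from -0.24 in the lowest bin to 0.30 in the highest. Within the ribosomal protein genes, the log2 ratio had a Spearman correlation of 0.40 with GC content and 0.19 with length over 82 genes. The 41 genes of lower GC content had a median of -0.41, with 39 lower in clodronate, and the 41 of higher GC content had a median of -0.16, with 29 lower.

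When the median of the length bin was subtracted from each ratio, the ribosomal protein genes had a median of -0.12 and 58 of 82 were lower, or 70.7%. The median of all genes is 0 in this setting by construction. With GC content and length both taken into account, the median was -0.11 and 57 of 82 were lower, and 8 were at least 1.5-fold lower, which is 9.76% against 14.9% of all genes. The ribosomal protein genes thus stayed on the lower side but nearer to 0, and fewer of them than of all genes lay far below. The part of library preparation in these trends was not tested.

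**Figure D4:**
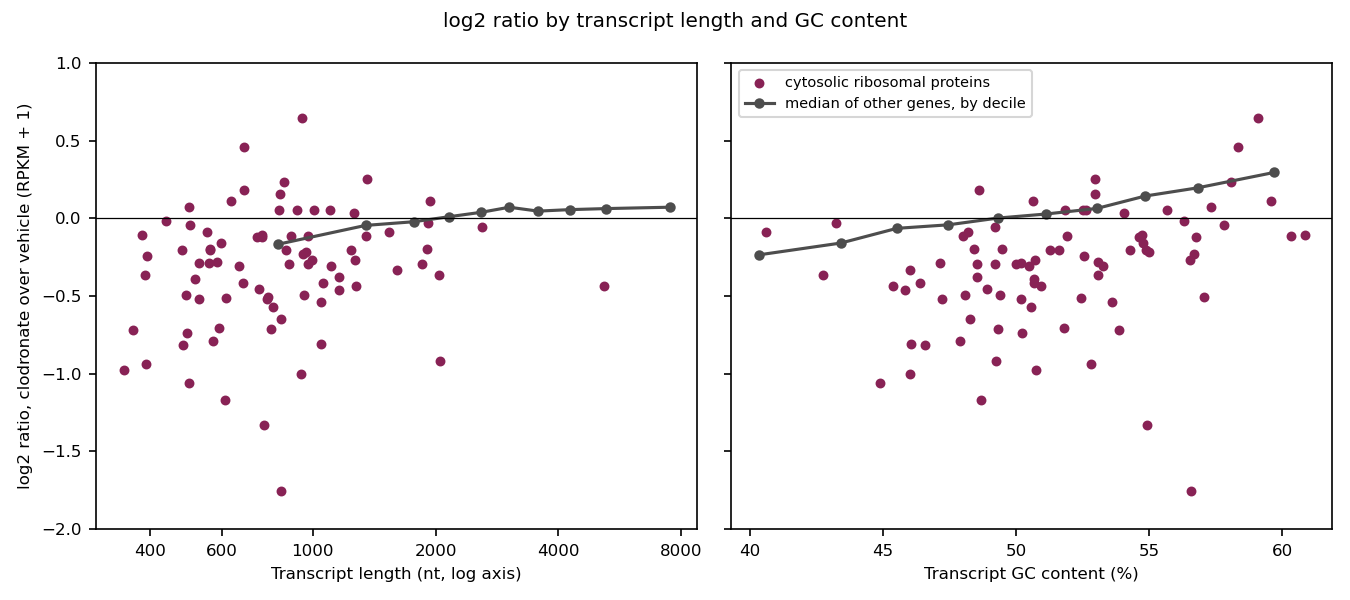
The log2 ratio of clodronate over vehicle on RPKM + 1 (vertical axis) of each of 82 ribosomal protein genes (points) against transcript length (left, nt, logarithmic axis) and transcript GC content (right, %), with the median of other genes in each of 10 bins (line). The line runs from -0.17 for the shortest to 0.072 for the longest transcripts and from -0.24 to 0.30 with GC content, and most points lie below it.

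Nuclear genes for mitochondria offer a comparison of short, co-regulated transcripts. The 80 kept genes of oxidative phosphorylation had a median length of 751.5 nt, close to that of the ribosomal protein genes, and a median log2 ratio of -0.17, with 49 of 80 lower. Of these, 12 were at least 1.5-fold lower and 5 higher. The 75 genes of mitochondrial ribosomal proteins had a median of -0.19, with 42 of 75 lower, 15 at least 1.5-fold lower and 11 higher. Their transcripts were longer, with a median of 1221 nt over the 70 with a matched length. The ribosomal protein genes of the cytosol had a lower median than both groups and a narrower spread, with a central 50% of -0.51 to -0.11 against -0.55 to 0.30 for mitochondrial ribosomal proteins and -0.44 to 0.11 for oxidative phosphorylation. Their levels differed as well, with a median in vehicle of 792 RPKM for the cytosolic ribosomal protein genes. It was 18.0 RPKM for mitochondrial ribosomal proteins and 111 RPKM for oxidative phosphorylation. Ratios of low genes scatter more widely, so the spreads were not compared at like level. No test of these differences was possible with 1 library per condition.

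**Figure D5:**
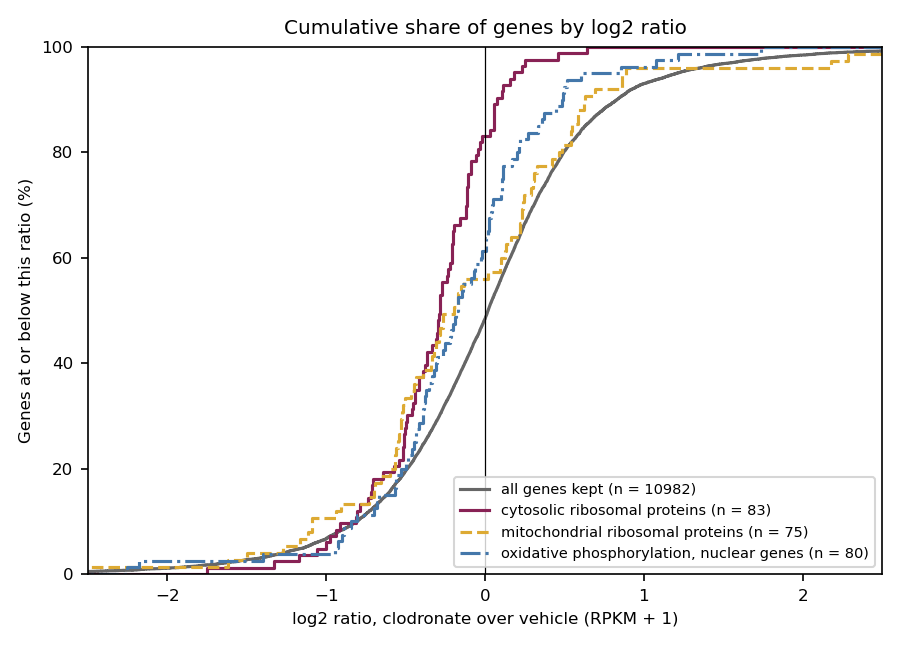
Share of genes (vertical axis, %) at or below a log2 ratio of clodronate over vehicle on RPKM + 1 (horizontal axis), for all 10982 genes kept, the 83 cytosolic ribosomal protein genes, 75 mitochondrial ribosomal protein genes and 80 nuclear genes of oxidative phosphorylation. At a ratio of 0 the curve of the cytosolic ribosomal proteins stands at 83.1% and that of all genes at 48.4%, with 56.0% and 61.2% for the other groups.

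Some ribosomal protein genes carry small nucleolar RNA genes in their introns. In 23 genes a small RNA row of the files overlapped the locus. Their median log2 ratio was -0.27, with 21 lower, against -0.29 in the 60 kept genes without such a row, with 48 lower.

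Proteins that join the ribosome but are named otherwise lay on both sides of 0. Gnb2l1, the older symbol of Rack1, had 570.2 and 619 RPKM (0.12), and Fau, a fusion that contains RPS30, had 1480.1 and 1278 RPKM (-0.21). Neither passed 1.5-fold.

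Other parts of the translation machinery were given by lists chosen with earlier results of these data known. Of 7 genes of elongation factors and their partners none passed 1.5-fold on the scale of RPKM + 1, with Eef1e1 just short of it. Those lower were Eef1b2 with 95.6 and 66.4 RPKM (-0.52), Eef1e1, which belongs to the tRNA synthetase complex, with 18.5 and 12.02 RPKM (-0.58), and Eef2k, the kinase of eEF2, with 5.25 and 5.24 RPKM. Eef1a1, which brings aminoacyl-tRNA to the ribosome, had 3335 and 3476 RPKM (0.060), and Eef2, which moves the ribosome along the mRNA, had 358 and 494 RPKM (0.46). Of 16 other mRNAs with an oligopyrimidine tract 10 were lower, with a median of -0.13. Among them Naca, a factor at the tunnel exit, had 343 and 208 RPKM (-0.72) and Tpt1 had 1739 and 1202 RPKM (-0.53), whereas Hnrnpa1 had 42.0 and 65.1 RPKM (0.62) and Vim had 1943.5 and 2046 RPKM (0.074). In the 13 genes of mTORC1 and the control of such mRNAs the median was -0.0056 and none passed 1.5-fold on the same scale. Larp1, which binds the tract, had 43.0 and 53.2 RPKM (0.30), and Mtor had 8.51 and 6.93 RPKM (-0.26).

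Genes that build ribosomes lay on both sides. Of 27 assembly factors 15 were lower and 12 higher, with a median of -0.074. At least 1.5-fold lower were Rpf2, Nop16, Gnl3 and Nop58, and at least 1.5-fold higher were Rrp12, Dkc1 and Rrs1. Of 12 kept genes of RNA polymerase I and its factors 7 were lower, and Znrd1, a subunit of the polymerase, had 262 and 74.6 RPKM (-1.80). Among 10 chaperones of ribosomal proteins and genes of the p53 checkpoint, 9 were higher, with a median of 0.31, and 4 passed 1.5-fold. These were Bccip, Grwd1, Ipo5 and Myc, a regulator of ribosome production, which had 22.7 and 44.7 RPKM (0.95). Trp53 had 42.4 and 46.9 RPKM (0.14), Mdm2 had 58.7 and 62.2 RPKM (0.081) and Cdkn1a had 239 and 229 RPKM (-0.059). The medians of the lists of translation and ribosome production thus ran from -0.13 to 0.31, but most of these transcripts are longer than those of ribosomal proteins. After subtraction of the median of the length bin, the assembly factors stood at -0.12, level with the ribosomal protein genes at -0.12, and the RNA polymerase I list at -0.11. The other oligopyrimidine mRNAs then stood at -0.060, the mTORC1 list at -0.038 and the chaperone and p53 list at 0.29. The elongation factor list stood at 0.084, and the 3 genes found of ubiquitin fusions and ribosome-bound proteins at 0.17.

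Marker lists of cell types were examined beside the ribosomal protein genes. The sum of the 11 macrophage markers was 26483 RPKM in vehicle and 25280.3 RPKM in clodronate, with 4 lower and 7 higher. The sum of the 8 fibroblast markers was 156 and 75.4 RPKM, with 5 of 6 kept lower and none at 0 in both. Neutrophil markers summed to 43.1 and 45.1 RPKM, T and NK cell markers to 3.23 and 12.2 RPKM (of which Cd2 alone gave 2.39 and 11.1 RPKM, with Cd3e, Cd3g and Ncr1 listed at 0 in both), endothelial markers to 3.34 and 8.26 RPKM, and blood progenitor markers to 6.81 and 5.16 RPKM, with Gata1 and Mpo listed at 0 in both. All 3 erythroid markers found were listed at 0 in both. Of 15 proliferation genes 13 were higher in clodronate and 11 at least 1.5-fold higher, with a median of 1.16. The part of these cell types and of proliferation in the levels of ribosomal protein mRNA was not tested.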

How the data were processed

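RNA sequencing was done on 1 vehicle and 1 clodronate library. The paper deposited with the series describes other experiments and gives no methods for these libraries. Per the labels, the submitters' processing notes name CASAVA 1.8.2, TopHat2 2.0.9, Bowtie 0.12.9, Cufflinks 2.2.1 and Cuffdiff, and the build mm9; the annotation release is not given in the sources used here. The authors deposited RPKM values per gene locus. RPKM are not counts, so no count model was used.

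RPKM of loci with the same symbol were summed. A number stood in place of the symbol in 26 loci, which were named by RefSeq accession. Ratios of clodronate to vehicle were taken on the log2(RPKM + 1) scale, where changes of low genes appear too small, and genes whose mean reached 1 RPKM were kept. With 1 library per condition no test was made. The share of all genes kept past 1.5-fold is the background of such counts. Length, GC content, coding sequence and 50-base words came from GENCODE M21 transcripts on GRCm38, found for 97.8% of the genes kept and 82 of 83 ribosomal protein genes kept, and promoter windows from RefSeq on GRCm38.p6. Coordinates of mm9 and GRCm38 were never combined. Rps20 had no transcript that could be placed in its locus. The genes, lists and tests were chosen with earlier results of these data known. Any ribosomal protein gene and any gene of a list could be named; in detail the 10 with the highest mean, the 5 highest and 5 lowest ratios where the mean reached 10 RPKM, and each paralog with its partner. Some genes that met these rules are left out of the text and of the plot of levels. Groups by place in the ribosome were set after values were seen. The steps were tested on simulated data. Python 3.11.15, numpy 2.4.6, pandas 2.3.3, scipy 1.17.1 and Biopython 1.88 were used.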

Additional observations from a re-analysis of the deposited data

How the results depend on the processing

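No paired analysis was possible because only 1 library stands for either injection. The median log2 ratio of the ribosomal protein genes was negative under every alternative run, namely with a pseudocount of 0.1, without a filter on low values, with a minimum mean of 10 RPKM, after centring, scaling to the same upper quartile or sum, the highest row of each symbol, the 77 ribosomal proteins proper, and subtraction of length or GC content and length; a minimum mean of 100 RPKM and genes with under 50% shared words were added after seeing the data. It moved from -0.29 to -0.12 when the median of the length bin was subtracted, where 2 genes were at least 1.5-fold higher, and to -0.11 with GC content and length, where 8 were at least 1.5-fold lower; both settings remove the trend by construction. At 2-fold in place of 1.5-fold, 5 genes were lower and 0 higher. The gene at least 1.5-fold higher, Rps4l, was left out by a minimum mean of 10 or 100 RPKM and without paralogs and Rps19bp1, with 0 higher in each. Among genes with under 50% shared words, 9 of 40 were at least 1.5-fold lower and 32 lower by any amount, since fewer genes were counted. All ribosomal protein genes together held 15.1% of all RPKM in vehicle and 11.7% in clodronate when small RNA genes were left out of the total. Without paralogs and Rps19bp1 the ribosomal proteins proper held 14.4% and 10.8%. Over all ribosomal protein genes kept, 10 of 82 turned from lower to higher after subtraction for length, Rpl22l1 (0.095) and Rpl41 (0.17) among them, and 11 of 82 after subtraction for GC content and length, whereas 5 of 83 turned from higher to lower when scaled to the same upper quartile. No gene changed sign with the other pseudocount, filters, centring, scaling to the same sum or the highest row of each symbol. The absence of replicates and of read totals limits every value.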
